A study of Saccharomyces cerevisiae with 27 samples.

Results

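Transcript levels of scc2-4 cells and wild-type cells that carried no induced break were compared on 14 of the 27 arrays of the series, 7 arrays for each genotype. The arrays were chosen by their titles alone, which give the genotype, the state of the break and the number of the experiment. Experiment 1 held 3 arrays per genotype and experiment 2 held 4. The other 13 arrays came from cells with a break and were used here only to look at the same genes in other samples. All cells were haploid budding yeast of W303 origin, grown in rich medium with 2% raffinose and arrested in G2/M, at the stage between DNA replication and the separation of sister chromatids. The temperature was then raised, galactose was added after 30 min and the cells were collected 90 min later, in wild type and scc2-4 alike. The mating type, the means of the arrest, the raised temperature and the number of separate scc2-4 isolates are not given in the sources used here. The labels call the mutant arrays Scc2 deficient and the replicates biological.

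Scc2 and its partner Scc4 form the loader that places cohesin, the ring-shaped complex of Smc1, Smc3, Scc1 (gene MCD1) and Scc3 (gene IRR1), onto chromosomes. Cohesin holds sister chromatids together from S phase until anaphase, and in yeast and other organisms loader and cohesin mutants also change the expression of many genes. The scc2-4 allele makes the protein temperature sensitive, so the heated mutant lacks working loader while its transcript can still be made. Galactose turns on the HO endonuclease in strains built for that purpose, and cells without the recognition site stay unbroken.

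A gene was called when its adjusted p in limma's moderated test on log2 RMA values (Benjamini-Hochberg over 5434 genes) was under 0.05, and a log2 change is always scc2-4 minus wild type. The deposited arrays fell into 3 sets by their value distributions, namely all of experiment 1, the wild type of experiment 2 and scc2-4 of experiment 2. Array medians were 10.205 to 10.212 for wild type and 10.229 to 10.232 for scc2-4 in experiment 1, and 9.779 to 9.8 against 10.033 to 10.054 in experiment 2. In experiment 2 the genotype cannot be told apart from the processing set. For that reason each experiment was fitted apart, and experiment 2 was also fitted after quantile normalization of its 8 arrays to 1 distribution. In experiment 1, arrays 1 and 2 of each group lay closer together than either did to array 3, with median absolute differences of 0.0358 against 0.114 to 0.116 in wild type and 0.0477 against 0.0893 in scc2-4. Fewer cells of a kind and less RNA per cell cannot be told apart in these bulk samples.

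The SCC2 transcript itself was lower in scc2-4 in both experiments. In experiment 1 its log2 level was 9.78, 9.74 and 9.82 in the wild-type arrays and 9.46, 9.44 and 9.39 in the mutant arrays. In experiment 2 the levels were 9.52, 9.48, 9.64 and 9.47 in wild type and 9.20, 9.17, 9.19 and 9.17 in scc2-4. The genotypes did not overlap in either experiment. Over all genes, scc2-4 lay wholly above wild type for 25.2% and wholly below for 21.2% in experiment 1. In experiment 2 these shares were 58.0% and 21.7%. The log2 change of SCC2 was -0.35 ± 0.04 (SE) in experiment 1 (limma adjusted p = 0.00398) and -0.35 ± 0.04 in experiment 2 (limma adjusted p = 3.75e-05). After quantile normalization of experiment 2 the SCC2 change was -0.63 and differed from that of experiment 1 (limma adjusted p of the difference = 0.00143). With arrays 1 and 2 of each group of experiment 1 averaged, its call there was lost (-0.37, limma adjusted p = 0.0907). Because the allele acts on the protein, the transcript does not check the labels.

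Among genes of the cohesin complex, SMC1 and IRR1 were lower in both experiments. SMC1, an ATPase of the ring, read 10.03, 10.01 and 9.88 in wild type against 9.73, 9.68 and 9.72 in scc2-4 in experiment 1. In experiment 2 it read 9.86, 9.82, 9.92 and 9.82 against 9.32, 9.30, 9.37 and 9.33. The genotypes stood apart without overlap in both, and the log2 changes were -0.26 ± 0.05 and -0.53 ± 0.04 (limma adjusted p = 0.0152 and 4.85e-07), a ratio of sizes under 0.5. SMC3, the other ATPase of the ring, fell by 0.61 ± 0.05 on the log2 scale in experiment 1 (limma adjusted p = 0.00139). In experiment 2 its wild-type arrays spread from 9.33 to 9.74 and overlapped the mutant range of 9.25 to 9.48, and the change of -0.16 ± 0.08 did not pass (limma adjusted p = 0.0989). After quantile normalization it did pass, at -0.42 (limma adjusted p = 0.000848). IRR1, which encodes the Scc3 subunit, was lower in both, by small amounts (-0.15 and -0.22, the latter -0.48 after quantile normalization), and in experiment 1 its call held in 1 of the 6 fits that leave out an array. MCD1, the subunit cleaved at anaphase, stood at -0.03 ± 0.07 in experiment 1 and 0.61 ± 0.07 in experiment 2. SCC4, the loader's other subunit, stood at 0.04 ± 0.05 and -0.29 ± 0.06. After quantile normalization the experiment 2 values were 0.31 and -0.55. Both MCD1 and SCC4 passed only in experiment 2, and the difference of the genotype effect between experiments passed for both (limma adjusted p = 7.06e-05 and 0.00297).

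**Figure D1:**
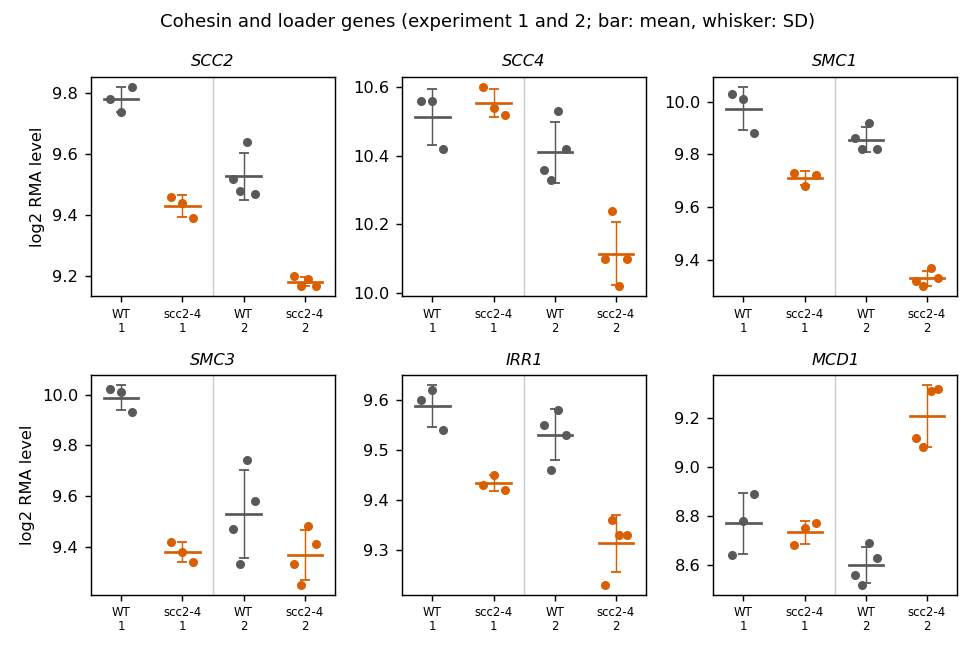
Log2 RMA levels (vertical axis, a separate scale in each panel) of 6 cohesin and loader genes in every array without a break, wild type in grey and scc2-4 in orange, for experiments 1 and 2; horizontal bars are group means and whiskers are SDs. SCC2, SMC1 and IRR1 sit lower in all mutant arrays of both experiments, SMC3 overlaps in experiment 2, and MCD1 separates only in experiment 2.

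Over the 14 measured genes of the cohesin list, 2 were higher and 5 lower in experiment 1, beside 14.3% higher and 11.8% lower over all genes. In experiment 2, 4 were higher and 5 lower, beside 60.6% and 23.4%, and after quantile normalization 1 was higher and 10 lower, beside 40.7% and 37.0%. The median change of the list was -0.12 in experiment 1 and -0.10 in experiment 2. It was -0.38 after quantile normalization.

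The experiments differed in how many genes they called. Experiment 1 called 1420 genes (26.1%), of which 778 were higher and 642 lower in scc2-4. With the replicate number as a block, experiment 1 called 2254 genes (41.5%), 1200 higher (22.1%) and 1054 lower (19.4%). Experiment 2 called 4565 genes (84.0%), with 3292 higher and 1273 lower, and the median log2 change of all genes was 0.24 there against 0.00 in experiment 1. After quantile normalization experiment 2 called 4220 genes (77.7%), split into 2209 higher and 2011 lower around a median of 0.03, so that the share of higher calls went from 72.1% to 52.3%. With arrays centred on their medians it was 48.1%. The genotype effect itself differed between experiments for 4076 genes (75.0%), or 3592 genes (66.1%) after quantile normalization, by limma's test of the interaction. Across genes, which are not independent replicates, the changes of both experiments had a Pearson r of 0.35.

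Of 1196 genes called in both experiments, 836 (69.9%) had the same sign and 360 had opposite signs. Genes are called agreeing here when they passed in both, with the same sign, and the smaller log2 change was at least 0.5 of the larger. This held for 389 genes (7.16% of all), 255 higher (4.69%) and 134 lower (2.47%) in scc2-4. They made up 27.4% of the calls of experiment 1 and 8.52% of those of experiment 2. REC102 lay just inside the size rule with a ratio of 0.5007, and ISA2 just outside it with 0.4993. Most agreeing changes were small, with medians of 0.32 and 0.43 for the higher genes and -0.35 and -0.37 for the lower genes in experiments 1 and 2. At least a 2-fold change in both experiments was reached by 10 higher and 5 lower genes. The 10th percentile of an array without a break, called the low mark here, lay between 7.268 and 7.797. Without the dimmest 25% of genes, and so with fewer genes tested, 170 of the higher and 83 of the lower kind agreed. The arrays of the genotypes did not overlap for any agreeing gene in experiment 1. In experiment 2 they did not overlap for 242 higher and 125 lower genes. Separate arrays are thus common to nearly all agreeing genes and do not set a named one apart. With quantile normalization 522 genes agreed (9.61%), 281 higher (5.17%) and 241 lower (4.44%). Under both scalings 215 genes agreed (3.96%), 132 higher (2.43%) and 83 lower (1.53%). After that normalization 48 of the 255 higher genes had a negative change in experiment 2, while 0 of the 134 lower genes had a positive one. Of the agreeing genes 65.6% were higher as deposited, 53.8% after quantile normalization and 49.8% with arrays centred.

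Experiment 1 sets the limit of this list. When arrays 1 and 2 of each of its groups were averaged and counted as 1, a setting chosen after the values were seen, 8 genes passed there and 5 agreed. These were YCL021W-A, which was higher, and GEX1, PTR2, YOL014W and PRM9, which were lower. Under that setting the other genes named below did not pass in experiment 1. Of the genes named above, SCC2, SMC1, SMC3 and IRR1 did not pass there either (limma adjusted p = 0.0907, 0.164, 0.06 and 0.278). Leaving out 1 array at a time gives 6 fits of experiment 1. The calls of HXT3, YMR084W, ATP20, ACO1, IRR1, TOS3 and GRE1 held in 1 of them, those of CCC2 and SIP18 in 2, and those of MRPL20, LYS5, ECM29, BLM10, SMC1, CLB5 and DUN1 in 3. Those of ARG3, COX10, PET123, SAG1, NOP7 and URA7 held in 4, and those of MCH2 and ARG1 in 5. The list counts below stand beside the shares of all genes, which were 14.3% higher and 11.8% lower in experiment 1, 60.6% and 23.4% in experiment 2, and 40.7% and 37.0% in experiment 2 after quantile normalization.

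**Figure D2:**
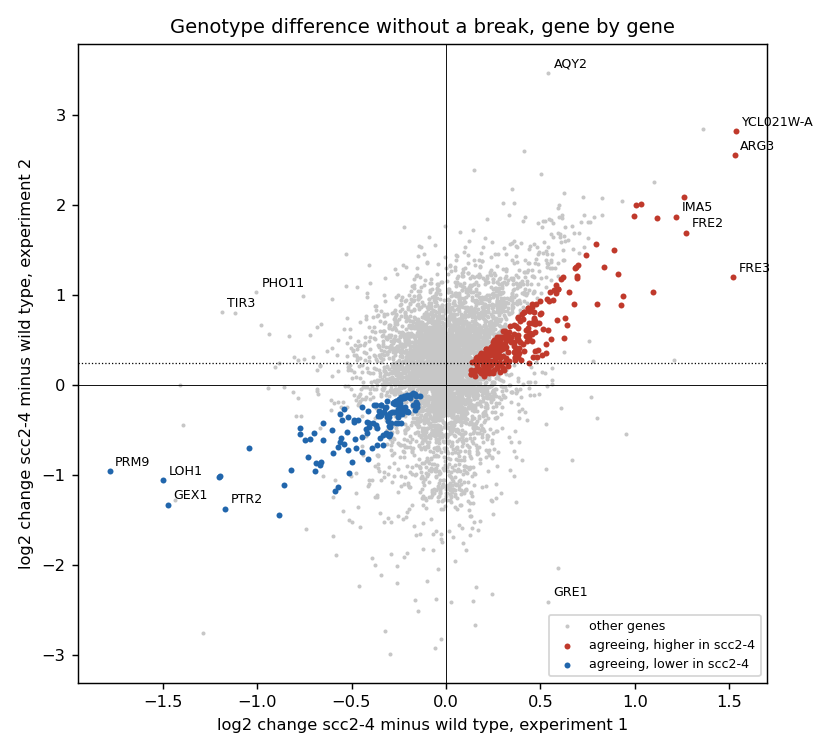
Log2 change of each of 5434 genes in experiment 1 (horizontal axis) against experiment 2 (vertical axis), scc2-4 minus wild type without a break. Red points are the 255 agreeing higher genes, blue points the 134 agreeing lower genes, grey points all others, and the dotted line marks the median change of 0.24 in experiment 2; most points lie above 0 on the vertical axis and are spread around 0 on the horizontal one.

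The largest agreeing rises included an uncharacterised gene, an arginine enzyme and metal reductases of the cell surface. YCL021W-A, an uncharacterised gene on chromosome III, read 9.22, 9.23 and 9.26 in wild type and 10.68, 10.87 and 10.75 in scc2-4 in experiment 1. In experiment 2 it read 7.40, 7.61, 7.90 and 7.87 against 10.63, 10.58, 10.46 and 10.38. No mutant array overlapped a wild-type array in either experiment. Levels of the 2 experiments come from different processing sets and are not compared with each other here. The changes were 1.53 ± 0.06 and 2.82 ± 0.11 on the log2 scale (limma adjusted p = 9.69e-05 and 1.29e-08), or 2.89-fold and 7.06-fold.

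ARG3, ornithine carbamoyltransferase of arginine synthesis, read 8.80, 9.05 and 9.80 in wild type and 10.45, 10.49 and 11.30 in scc2-4 in experiment 1. In experiment 2 it read 9.37, 9.36, 9.23 and 9.50 against 11.98, 11.88, 11.88 and 11.93. Replicate 3 of experiment 1 was the high array in both genotypes, and no mutant array reached down to a wild-type one. The changes were 1.53 ± 0.32 and 2.56 ± 0.06 (limma adjusted p = 0.0167 and 2.72e-09). Leaving out wild-type array 1 or 2 of experiment 1 moved its adjusted p above 0.05, and the fit with replicate blocks gave an adjusted p of 0.000283. ARG1, argininosuccinate synthetase and the next step of the same pathway, changed by 1.36 ± 0.28 and 2.85 ± 0.08, which lies just outside the size rule, and it agreed after quantile normalization. Of 18 measured genes of arginine metabolism, 5 were higher and 1 lower in experiment 1 and 11 were higher and 3 lower in experiment 2, where 60.6% of all genes were higher. After quantile normalization 10 were higher and 7 lower, beside 40.7% and 37.0% of all genes.

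The metal reductase genes FRE2, FRE3 and FRE7 were all among the 10 genes raised at least 2-fold in both experiments. Fre2 and Fre3 reduce iron complexes at the plasma membrane, and Fre7 is a related reductase induced when copper is scarce. FRE2 read 7.03, 7.01 and 7.43 against 8.39, 8.47 and 8.42 in experiment 1, and 6.88, 6.62, 6.76 and 6.65 against 8.40, 8.39, 8.40 and 8.50 in experiment 2. Every mutant array lay above every wild-type array. The changes of FRE2 were 1.27 ± 0.11 and 1.70 ± 0.06 (limma adjusted p = 0.00171 and 7.98e-09). FRE3 changed by 1.52 ± 0.29 and 1.20 ± 0.11, with 1 mutant array of experiment 1 at 9.90 and its fellows at 8.82 and 8.89. FRE7 changed by 1.26 ± 0.19 and 2.09 ± 0.25, and its mutant arrays in experiment 2 ran from 7.95 to 9.31. FIT3, a cell wall mannoprotein that retains iron carriers, was higher by 0.44 ± 0.05 and 0.58 ± 0.06, and CCC2, the copper pump that loads iron oxidase, by 0.25 ± 0.06 and 0.37 ± 0.05. The CCC2 call of experiment 2 was lost after quantile normalization (0.10, limma adjusted p = 0.0724). Of the 32 measured iron genes, 9 were higher and 3 lower in experiment 1 (median 0.08), 25 were higher and 5 lower in experiment 2 (median 0.63), and 19 were higher and 6 lower after quantile normalization. Of these genes 5 agreed, all higher, beside 4.69% of all genes.

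**Figure D3:**
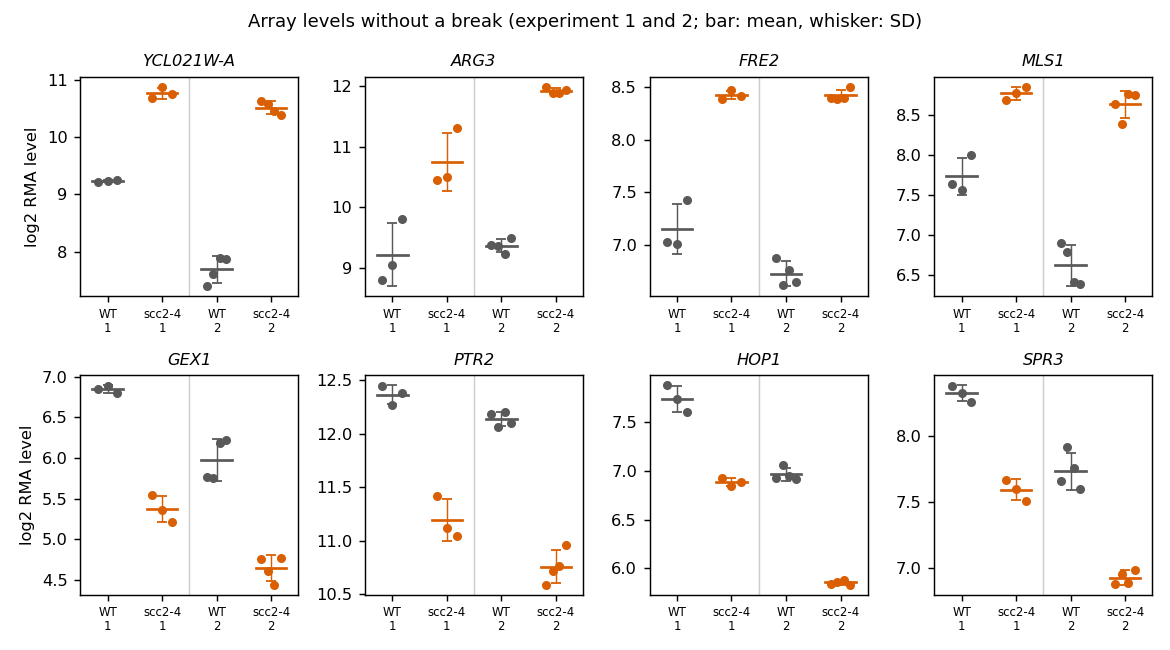
Log2 RMA levels (vertical axis, a separate scale in each panel) of 4 higher and 4 lower agreeing genes in every array without a break, wild type in grey and scc2-4 in orange, for experiments 1 and 2; bars are group means and whiskers SDs. The genotypes do not overlap for any of the 8 genes in either experiment, and in experiment 1 this holds for all 255 higher and 134 lower agreeing genes.

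Carbon metabolism supplied further members of both directions. MLS1, malate synthase of the glyoxylate cycle, read 7.64, 7.57 and 8.0 against 8.69, 8.77 and 8.85 in experiment 1. In experiment 2 it read 6.90, 6.79, 6.41 and 6.39 against 8.64, 8.39, 8.76 and 8.75. In both experiments the genotypes did not overlap, and the changes were 1.03 ± 0.12 and 2.01 ± 0.13 (limma adjusted p = 0.00299 and 2.99e-07). IMA5, an alpha-glucosidase that splits isomaltose, changed by 1.22 ± 0.16 and 1.87 ± 0.15. HXT3, a low-affinity glucose carrier, changed by 1.09 ± 0.29 and 1.03 ± 0.06. Replicate 3 of experiment 1 was the high array of HXT3 in both genotypes. It stood at 9.67 beside 8.88 and 8.93 in wild type, and at 10.81 beside 10.05 and 9.90 in scc2-4. Among the 6 fits that leave out an array, the HXT3 call in experiment 1 held only without wild-type array 3. The fit with replicate blocks gave a limma adjusted p of 0.000562. HXT11, a hexose carrier also linked to drug sensitivity, was lower by -1.20 ± 0.10 and -1.02 ± 0.08. The glyoxylate and gluconeogenesis list as a whole was mixed, with 5 of 18 higher and 0 lower in experiment 1 and 6 higher and 5 lower in experiment 2, or 3 higher and 6 lower after quantile normalization.

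Genes of the mitochondrial translation system were higher in both experiments across most of their list. Mitochondrial ribosomes translate the few proteins that the mitochondrial genome encodes, most of them core subunits of the respiratory chain, while their own proteins come from nuclear genes. Of 76 measured genes for proteins of this ribosome, 68 were higher and 0 lower in experiment 1, beside 14.3% higher over all genes. In experiment 2 all 76 were higher, beside 60.6%, and 74 after quantile normalization, beside 40.7%. The median log2 change was 0.45 in experiment 1, 1.17 in experiment 2 and 0.92 after quantile normalization, against 0.00, 0.24 and 0.03 over all genes. The size rule left 16 of the 76 as agreeing. The difference between experiments passed for 72 of the 76, and for 61 after quantile normalization. MRPL49, of the large subunit, read 9.60, 9.46 and 9.64 against 10.27, 10.25 and 10.69 in experiment 1, and 9.30, 9.46, 9.58 and 9.58 against 10.78, 10.66, 10.92 and 10.82 in experiment 2. These levels did not overlap, and the changes were 0.84 ± 0.12 and 1.32 ± 0.07 (limma adjusted p = 0.00662 and 1.32e-07). MRP1 and PET123, of the small subunit, changed by 0.69 ± 0.07 and 1.21 ± 0.07 and by 0.59 ± 0.12 and 1.07 ± 0.05. MRPL20, of the large subunit, changed by 0.61 ± 0.15 and 1.18 ± 0.08.

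Factors that serve the same ribosome moved the same way. Of 40 measured mitochondrial translation factors and tRNA synthetases, 29 were higher and 0 lower in experiment 1 (median 0.34), 37 were higher and 2 lower in experiment 2 (median 0.92), and 36 were higher and 2 lower after quantile normalization. IFM1, the mitochondrial initiation factor that brings the first tRNA, changed by 0.79 ± 0.12 and 1.57 ± 0.05. ISM1 and NAM2, the mitochondrial synthetases for isoleucine and leucine tRNAs, changed by 0.89 ± 0.12 and 1.50 ± 0.10 and by 0.69 ± 0.09 and 1.19 ± 0.07. CBP6, an activator of cytochrome b translation, changed by 0.48 ± 0.05 and 0.90 ± 0.04. All of these passed in both experiments, and 10 of the 40 agreed under the size rule.

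Assembly factors of cytochrome oxidase, the terminal enzyme of respiration, were higher in 16 of 29 cases in experiment 1 and in 26 of 29 in experiment 2, with 0 and 2 lower, beside 14.3% and 60.6% higher over all genes. After quantile normalization 22 were higher and 3 lower. COX10, which makes the heme A precursor, read 7.77, 7.70 and 8.14 against 8.60, 8.69 and 9.34 in experiment 1 and 7.52, 7.48, 7.63 and 7.73 against 9.62, 9.42, 9.72 and 9.61 in experiment 2. The groups were apart in both, at 1.00 ± 0.21 and 2.01 ± 0.07. Leaving out wild-type array 1 or 2 of experiment 1 took its adjusted p to 0.0571 and 0.0573. PET117, another assembly factor, changed by 0.62 ± 0.05 and 1.20 ± 0.06. Of 42 genes of the respiratory chain and ATP synthase, 7 were higher and 0 lower in experiment 1 (median 0.06), a share near the 14.3% of all genes. In experiment 2, 38 were higher and 3 lower (median 0.39), beside 60.6% and 23.4%, and 32 were higher and 4 lower after quantile normalization, beside 40.7% and 37.0%. ATP20, a subunit of the ATP synthase, changed by 0.50 ± 0.14 and 0.94 ± 0.06, and QCR10, of the cytochrome bc1 complex, by 0.28 ± 0.04 and 0.34 ± 0.04. The experiment 2 value of QCR10 was 0.17 after quantile normalization and 0.08 with centred arrays, where it did not pass (limma adjusted p = 0.0808). In the TCA cycle 4 of 18 genes were higher and 0 lower in experiment 1, 12 were higher and 2 lower in experiment 2, and 0 agreed. After quantile normalization 12 were higher and 5 lower. KGD1, of 2-oxoglutarate dehydrogenase, changed by 0.33 ± 0.05 and 0.78 ± 0.05 and ACO1, aconitase, by 0.33 ± 0.07 and 0.91 ± 0.04.

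**Figure D4:**
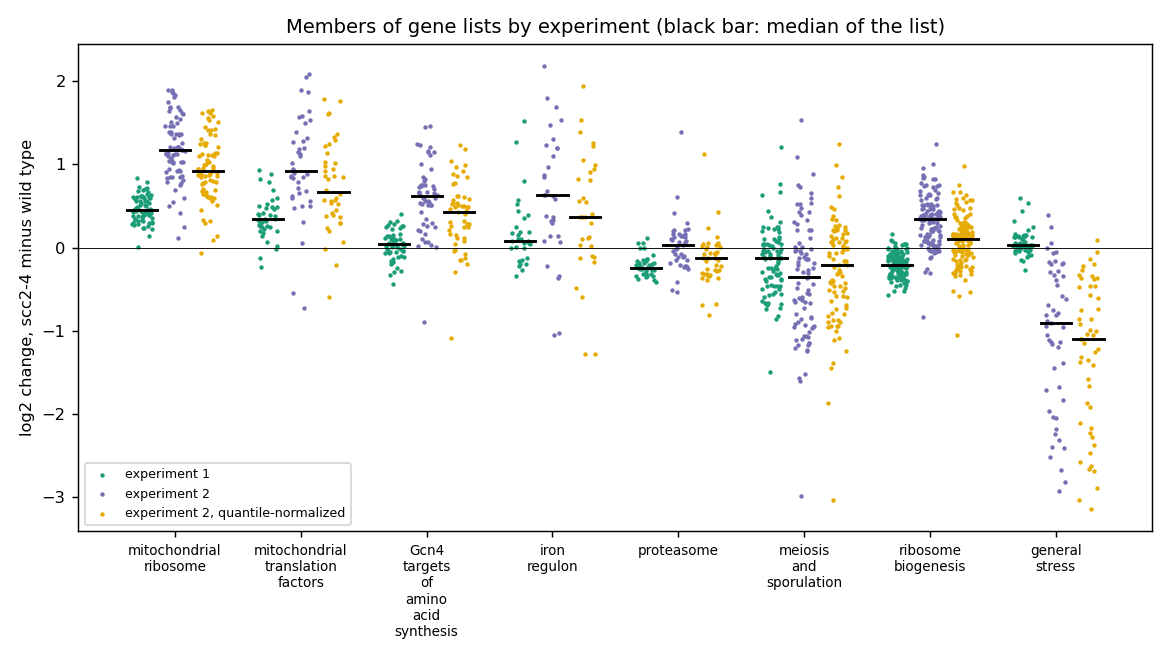
Log2 changes (vertical axis) of the measured members of 8 gene lists, each point a gene, in experiment 1 (green), experiment 2 (purple) and experiment 2 after quantile normalization (yellow); black bars are list medians. Mitochondrial ribosome genes lie above 0 in nearly every case in all 3 settings, proteasome and ribosome biogenesis genes lie lower in experiment 1 than in experiment 2, and general stress genes are low only in experiment 2.

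Genes of amino acid synthesis driven by Gcn4, the activator of the starvation response, were raised almost across the list in experiment 2 and not in experiment 1. Of 54 measured targets 8 were higher and 5 lower in experiment 1 (median 0.04), against 47 higher and 1 lower in experiment 2 (median 0.61) and 43 higher and 5 lower after quantile normalization. Over all genes the shares were 14.3% higher and 11.8% lower, 60.6% and 23.4%, and 40.7% and 37.0%, so the share of higher targets in experiment 1 was near that of all genes. The difference between experiments passed for 51 of the 54, or 41 after quantile normalization. ARO1, the multi-step enzyme on the way to aromatic amino acids, was 1 of 2 agreeing members, at 0.41 ± 0.05 and 0.74 ± 0.06. LYS5, which activates a lysine enzyme, was the other, at 0.32 ± 0.07 and 0.51 ± 0.03 (0.25 after quantile normalization).

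The transcription factor genes PHD1, TEC1 and MSN1, of the filamentous growth list, were higher in both experiments. PHD1, whose overproduction drives pseudohyphal growth, read 8.92, 8.94 and 9.17 against 9.99, 10.05 and 10.34 in experiment 1. It read 8.69, 8.83, 8.51 and 8.67 against 10.64, 10.47, 10.50 and 10.52 in experiment 2. All mutant arrays were above all wild-type arrays, by 1.12 ± 0.11 and 1.86 ± 0.07 (limma adjusted p = 0.00228 and 8.77e-09). TEC1, the partner of Ste12 at filamentation genes, changed by 0.69 ± 0.05 and 1.31 ± 0.06. MSN1, another activator of invasive growth, changed by 0.53 ± 0.04 and 0.46 ± 0.06, and by 0.17 in experiment 2 after quantile normalization. Of 19 measured genes of the list 9 were higher and 1 lower in experiment 1, beside 14.3% higher over all genes. In experiment 2, 12 were higher and 3 lower, a share near the 60.6% of all genes, and 11 were higher and 6 lower after quantile normalization. The list did not move in 1 direction, since 1 member passed as lower in both experiments. Its changes reached down to -1.285 in experiment 1 and -2.75 in experiment 2, larger in size than its highest rises of 1.12 and 1.86.

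Among pheromone and mating genes, SST2, the regulator that dampens the pheromone signal, changed by 0.68 ± 0.06 and 1.30 ± 0.07. FUS1, needed for cell fusion, changed by 0.54 ± 0.08 and 0.61 ± 0.07, and SAG1, the agglutinin of alpha cells, by 0.34 ± 0.07 and 0.48 ± 0.06. After quantile normalization the experiment 2 values of FUS1 and SAG1 were 0.36 and 0.18. STE3, the receptor found on alpha cells, was lower by -0.41 ± 0.04 and -0.46 ± 0.04, and its change shrank to -0.06 in experiment 2 after quantile normalization (limma adjusted p = 0.19). Over 37 measured genes the directions were mixed, with 5 higher and 7 lower in experiment 1 and 20 higher and 15 lower in experiment 2, or 22 higher and 8 lower after quantile normalization. In experiment 1, 6 markers of MATa cells averaged 6.0 to 6.17 in wild type and 5.86 to 5.99 in scc2-4, 4 markers of MATalpha cells averaged 5.94 to 6.01 and 5.71 to 5.79, and 4 haploid genes averaged 10.25 to 10.37 and 10.37 to 10.46. In experiment 2 the MATa markers averaged 5.81 to 5.91 and 5.92 to 6.02, with 4 higher and 2 lower. The MATalpha markers averaged 5.96 to 6.03 and 5.57 to 5.75, with 1 higher and 3 lower. The haploid genes averaged 9.57 to 9.65 and 10.56 to 10.60, all 4 being higher in scc2-4, beside 60.6% of all genes. After quantile normalization 4 MATa, 2 MATalpha and 4 haploid markers were higher and 0 lower, beside 40.7% higher over all genes.

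The remaining large rises came from scattered genes. SRD1, linked to ribosomal RNA processing, changed by 0.99 ± 0.13 and 1.87 ± 0.18, YIG1, linked to glycerol production, by 0.91 ± 0.06 and 1.23 ± 0.10, and YCR099C, an uncharacterised gene of chromosome III, by 0.93 ± 0.07 and 0.89 ± 0.06. YGR109W-A, an open reading frame of a Ty3 retrotransposon, changed by 0.94 ± 0.11 and 0.99 ± 0.05, but its probes can match several near-identical copies, so the source of the signal is uncertain.

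The agreeing genes that were lower included the transporter genes GEX1, PTR2 and HXT11. Many lower genes were dim. GEX1, HXT11, PRM9, LOH1, MCH2, STE3 and TOP3 read below the low mark in every array without a break, and YMR084W in those of experiment 2. So did the higher genes YGR109W-A, YCR099C and SST2 in both experiments, and IMA5 in every array of experiment 1. Wild-type arrays of IMA5, FRE2 and FRE7 also read below it in both experiments, and those of MLS1 in experiment 2. The rises of these genes thus start from dim wild-type values. PTR2 and SLF1 lay above the low mark in every array. Whether so dim a signal follows the transcript was not tested. GEX1, a glutathione exchanger whose probes also match related copies, read 6.85, 6.89 and 6.80 against 5.54, 5.36 and 5.21 in experiment 1. It read 5.76, 5.75, 6.18 and 6.22 against 4.76, 4.61, 4.44 and 4.77 in experiment 2. The mutant arrays lay below the wild-type arrays throughout, by -1.47 ± 0.08 and -1.33 ± 0.12 (limma adjusted p = 0.000746 and 4.05e-06).

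PTR2, the carrier of di- and tripeptides, read 12.44, 12.27 and 12.38 against 11.42, 11.12 and 11.04 in experiment 1, and 12.18, 12.06, 12.20 and 12.10 against 10.59, 10.72, 10.76 and 10.96 in experiment 2. The gap between the genotypes was wider than the range within any group. The changes were -1.17 ± 0.10 and -1.38 ± 0.07 (limma adjusted p = 0.00171 and 7.84e-08), and -1.56 in experiment 2 after quantile normalization. PRM9, a pheromone-regulated membrane protein, fell by 1.78 ± 0.06 and 0.96 ± 0.05 on the log2 scale, and LOH1 by 1.50 ± 0.13 and 1.06 ± 0.07. Both missed the size rule after quantile normalization. YOL014W, which is uncharacterised, changed by -1.20 ± 0.08 and -1.03 ± 0.05, and SLF1, an RNA-binding protein linked to copper, by -1.04 ± 0.09 and -0.70 ± 0.06. YMR084W changed by -0.88 ± 0.25 and -1.45 ± 0.05, and its call in experiment 1 held only without wild-type array 3 among the fits that leave out an array. MCH2, a relative of monocarboxylate carriers, changed by -0.69 ± 0.13 and -0.86 ± 0.07, with the call of experiment 1 lost without scc2-4 array 2 (limma adjusted p = 0.0512). After quantile normalization the experiment 2 values of LOH1, YMR084W and MCH2 shrank to -0.70, -0.83 and -0.27, and MCH2 missed the size rule too.

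A list of 88 meiotic and spore genes was drawn up after the values were seen, so its counts describe the data and test nothing. Of 87 measured, 9 were higher and 32 lower in experiment 1 (median -0.13), 18 were higher and 53 lower in experiment 2 (median -0.36), and 19 were higher and 47 lower after quantile normalization. Among them 16 agreed as lower and 3 as higher, beside 2.47% and 4.69% of all genes. The largest rises of the list were 1.207 in experiment 1 and 1.53 in experiment 2, and the members named next were all lower. HOP1, a protein of the meiotic chromosome axis, read 7.88, 7.74 and 7.61 against 6.93, 6.84 and 6.89 in experiment 1 and 6.93, 7.06, 6.95 and 6.92 against 5.84, 5.86, 5.88 and 5.83 in experiment 2. The genotypes were apart in both experiments. The changes were -0.86 ± 0.07 and -1.11 ± 0.04 (limma adjusted p = 0.00139 and 8.28e-09). SPR3, a septin of sporulating cells, changed by -0.73 ± 0.06 and -0.80 ± 0.07, PES4, an RNA-binding protein, by -0.82 ± 0.09 and -0.95 ± 0.06, and GAS4, which builds spore wall glucan, by -0.66 ± 0.04 and -0.85 ± 0.05. SPO19, of the prospore membrane, changed by -0.67 ± 0.09 and -0.89 ± 0.13. After quantile normalization the experiment 2 values of GAS4 and SPO19 were -0.47 and -0.41. SPO74, of the meiotic spindle pole body, changed by -0.70 ± 0.09 and -0.96 ± 0.06, and by -0.06 in experiment 2 after quantile normalization (limma adjusted p = 0.243). PES4, GAS4, SPO19 and SPO74 read below the low mark in every array without a break, and HOP1 in those of experiment 2. Averaged levels of 5 markers of meiotic diploids were 7.35 to 7.42 in wild type and 7.31 to 7.36 in scc2-4 in experiment 1, and 6.82 to 6.96 against 6.94 to 7.01 in experiment 2.

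The proteasome, the protease that degrades ubiquitin-tagged proteins, was lower across most of its genes in experiment 1. Of 41 measured genes 33 were lower and 0 higher, beside 11.8% lower over all genes, with a median of -0.24. In experiment 2 the list was split, with 17 higher and 16 lower and a median of 0.03, which turned to -0.13 with 4 higher and 23 lower after quantile normalization. A total of 11 agreed, all lower, and 12 passed in both experiments with opposite signs. RPT6, an ATPase of the base, read 12.72, 12.73 and 12.68 against 12.44, 12.40 and 12.33 in experiment 1, and 12.38, 12.35, 12.42 and 12.38 against 12.18, 12.13, 12.14 and 12.13 in experiment 2. These small shifts of -0.32 ± 0.05 and -0.24 ± 0.03 left no overlap (limma adjusted p = 0.00606 and 6.25e-05). RPN8, of the lid, changed by -0.24 ± 0.04 and -0.26 ± 0.04. ECM29 and BLM10, proteins that bind the assembled proteasome, changed by -0.42 ± 0.09 and -0.54 ± 0.06 and by -0.25 ± 0.05 and -0.42 ± 0.04. After quantile normalization the experiment 2 values were -0.37 for RPT6, -0.39 for RPN8 and -0.68 for BLM10.

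Among recombination genes RDH54 and TOP3 were lower and MPH1 was higher in both experiments. RDH54, a DNA translocase of recombination, changed by -0.43 ± 0.08 and -0.49 ± 0.04, TOP3, the topoisomerase that resolves recombination intermediates, by -0.49 ± 0.08 and -0.39 ± 0.06, and MPH1, a helicase, by 0.31 ± 0.04 and 0.42 ± 0.06. Of 20 measured genes of homologous recombination 2 were higher and 6 lower in experiment 1 and 6 were higher and 8 lower in experiment 2, beside 60.6% and 23.4% of all genes. After quantile normalization 3 were higher and 12 lower, beside 40.7% and 37.0%, and RDH54 and MPH1 stood at -0.75 and 0.16. DUN1, a kinase of the DNA damage checkpoint, changed by -0.22 ± 0.05 and -0.12 ± 0.04, and TOS3, a kinase that activates Snf1, by -0.48 ± 0.14 and -0.70 ± 0.07. The call of TOS3 in experiment 1 was lost in 5 of the 6 fits that leave out an array, and DUN1 stood at -0.40 in experiment 2 after quantile normalization. The DNA damage response list of DUN1 was mixed. Among its 37 measured genes 3 were higher and 8 lower in experiment 1, and 17 were higher and 12 lower in experiment 2. After quantile normalization 7 were higher and 19 lower. In that list 3 genes agreed as higher and 1 as lower. CLB5, the S-phase cyclin, changed by -0.29 ± 0.06 and -0.46 ± 0.05 (-0.72 after quantile normalization). Of the 35 genes of its list, G1/S and DNA replication, 1 was higher and 9 lower in experiment 1, 29 were higher and 3 lower in experiment 2, and 19 were higher and 8 lower after quantile normalization. Of 4 markers of S phase 0 were higher and 2 lower in experiment 1, and 2 were higher and 1 lower in experiment 2, or 1 higher and 2 lower after quantile normalization. Markers of G2/M cells averaged 9.89 to 9.90 in wild type and 9.63 to 9.74 in scc2-4 in experiment 1, but 9.28 to 9.46 against 9.81 to 9.89 in experiment 2. Markers of G1 averaged 9.25 to 9.33 and 9.30 to 9.40, then 8.70 to 8.79 and 9.48 to 9.69. Of the 5 G2/M markers 2 were lower in experiment 1 and 4 higher in experiment 2, and of the 4 G1 markers 1 was higher in experiment 1 and 4 in experiment 2. In experiment 2, 60.6% of all genes were higher. After quantile normalization 3 G2/M markers were higher and 1 lower, and 3 G1 markers were higher and 0 lower, beside 40.7% and 37.0%. The part of these markers in the other results was not tested.

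Several groups differed between experiments. General stress genes, which yeast turns on in many adverse conditions, were 3 of 51 higher and 0 lower in experiment 1 (median 0.03), beside 14.3% and 11.8% of all genes. In experiment 2, 2 were higher and 44 lower (median -0.91), beside 60.6% and 23.4%. After quantile normalization 0 were higher and 48 lower (median -1.10), beside 40.7% and 37.0%. The difference between experiments passed for 45 of the 51, and for 50 after quantile normalization. SIP18 and GRE1, both induced by drying and salt stress, changed by 0.59 ± 0.15 and 0.54 ± 0.16 in experiment 1 and by -2.04 ± 0.16 and -2.41 ± 0.20 in experiment 2. The experiment 1 call of GRE1 was lost after quantile normalization (limma adjusted p = 0.0547), with centred arrays (0.0527) and in 5 of the 6 fits that leave out an array, and that of SIP18 in 4 of them. Ribosome biogenesis genes were 1 of 128 higher and 35 lower in experiment 1 (median -0.21), but 98 higher and 5 lower in experiment 2 (median 0.34), or 49 higher and 31 lower after quantile normalization (median 0.10). The shares of higher genes over all genes were 14.3%, 60.6% and 40.7%. After quantile normalization the share of higher genes in the list thus stood near that of all genes. The share of lower genes in the list was smaller, with 31 of 128 beside 37.0% of all genes. NOP7 and NOP8, factors of the large ribosomal subunit, were 2 of its 4 agreeing members, at -0.35 ± 0.08 and -0.29 ± 0.06 and at -0.32 ± 0.05 and -0.26 ± 0.05. After quantile normalization their experiment 2 values were -0.52 and -0.53.

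Ranked by the smaller of their changes, the leading genes with opposite signs included genes of phosphate, the cell wall and nucleotides. The stress gene SIP18, given above, ranked among them. SIP18 and GRE1 changed more in experiment 2 than any gene of this paragraph. PHO11, an acid phosphatase whose probes match near-identical copies, read 10.38, 10.41 and 10.79 against 9.52, 9.37 and 9.68 in experiment 1, and 9.23, 8.95, 9.44 and 9.40 against 10.26, 10.31, 10.37 and 10.21 in experiment 2. The arrays did not overlap in either experiment, with the wild type above in the first and the mutant above in the second. The changes were -1.01 ± 0.13 and 1.03 ± 0.10, and their difference passed (limma adjusted p = 3.23e-07). TIR3, a cell wall mannoprotein, changed by -1.19 ± 0.12 and 0.81 ± 0.05. GIT1, a carrier of glycerophosphoinositol, changed by -0.98 ± 0.15 and 0.67 ± 0.10, and URA7, CTP synthase, by -0.66 ± 0.15 and 0.67 ± 0.08. After quantile normalization the experiment 2 values of TIR3, GIT1 and URA7 were 0.50, 0.41 and 0.44. YLR156W, an uncharacterised gene in several copies, changed by -0.94 ± 0.10 and 0.56 ± 0.09, and the second value no longer passed after quantile normalization (0.25, limma adjusted p = 0.0524). Such genes are among the 360 with opposite signs, of which 301 were lower in experiment 1 and higher in experiment 2.

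All cells received galactose, so its genes are compared between genotypes here and their induction is not measured. GAL1 lay above the 90th percentile of every array (12.299 to 12.54). Whether a genotype difference would show at so high a level was not tested. GAL1, galactokinase, read 14.02 to 14.10 in all 6 arrays of experiment 1, with a change of -0.03 ± 0.04, and 13.96 to 14.09 in experiment 2, with a change of 0.09 ± 0.03 that turned to -0.06 after quantile normalization and to -0.16 with centred arrays. HO, the endonuclease gene, changed by 0.16 ± 0.05 in experiment 1 (limma adjusted p = 0.0505) and -0.03 ± 0.04 in experiment 2 (limma adjusted p = 0.469). The experiment 2 value of HO became -0.21 after quantile normalization (limma adjusted p = 0.00032) and -0.28 with centred arrays (6e-05). In experiment 1 HO passed with array weights, a trended prior, the filter, a shared spread over all arrays of the experiment or the replicate block (limma adjusted p = 0.0189 to 0.0486). Of 11 measured genes of the galactose regulon 0 passed in experiment 1. In experiment 2, 1 was higher and 4 lower, beside 60.6% and 23.4% of all genes, and 0 were higher and 9 lower after quantile normalization (median -0.21), beside 40.7% and 37.0%.

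By position, 36 of the 320 measured genes among the 10 outermost of each chromosome arm agreed (11.2%), 26 higher and 10 lower, beside 7.16% of all genes. By chromosome the share of agreeing genes ran from 3.55% on chromosome XIV to 11.5% on chromosome III, where 14 of 17 were higher. Among 216 probe sets without a gene name 17 agreed (7.87%).

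The arrays with a break give the same genotype comparison in samples that played no part in choosing the 389 genes, although they share the processing sets and experiments. There the comparison called 1255 genes in experiment 1 (23.1%) and 4476 in experiment 2 (82.4%). Of the 255 higher genes 157 passed as higher in experiment 1, beside 12.2% over all genes, and 228 in experiment 2, beside 58.5%. Of the 134 lower genes 91 passed as lower in experiment 1, beside 10.9%, and 121 in experiment 2, beside 23.8%. The sign was kept by 251 and 250 of the 255, and by 131 and 130 of the 134, in experiments 1 and 2. Median changes with a break were 0.30 and 0.45 for the higher genes and -0.32 and -0.39 for the lower genes.

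**Figure D5:**
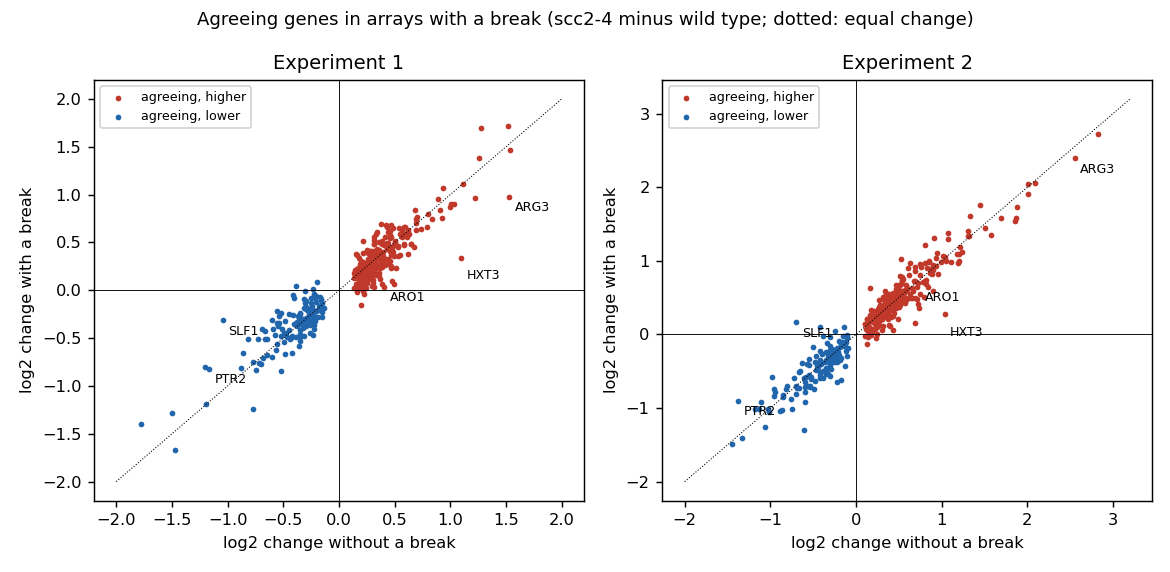
Log2 change, scc2-4 minus wild type, of the 389 agreeing genes without a break (horizontal axis) and with a break (vertical axis), in experiment 1 (left) and experiment 2 (right), red for higher and blue for lower genes; the dotted line marks equal change. Nearly all points keep their sign, and SLF1, HXT3 and ARO1 lie off the line.

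The test of the difference itself passed for few genes, 11 in experiment 1 (0.202%) and 139 in experiment 2 (2.56%). Among the agreeing genes it passed for 1 in experiment 1 and 19 in experiment 2. ARO1 was the 1 gene of experiment 1, with 0.41 without a break and 0.03 with it, and its values were 0.74 and 0.36 in experiment 2. HXT3 changed by 1.03 without a break and 0.28 with it in experiment 2 (limma adjusted p of the difference = 0.000131), and by 1.09 and 0.34 in experiment 1, where the difference did not pass. SLF1 changed by -0.70 without a break and 0.16 with it in experiment 2 (limma adjusted p of the difference = 7.95e-05), and by -1.04 and -0.31 in experiment 1. PTR2 stood at -1.38 and -0.90 in experiment 2.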

How the data were processed

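The value table that the authors deposited holds log2 expression values per probe set, and the submitters' processing notes name RMA and R 2.9.2 for them. RMA subtracts background, equalises the distributions of arrays run together and combines the probes of a set. Its version, the arrays of each run and the array centring are not given in the sources used here, and no scanner files were used. The mean absolute difference of the sorted values of array pairs was 0.00918 to 0.0262 inside the 3 processing sets and 0.145 to 0.416 between them.

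Of 5684 probe sets, 5468 had 1 gene symbol, 0 several and 216 none, and 12 symbols were updated through a RefSeq gene table. Where a gene had several probe sets (34 genes), the brightest on average represented it, leaving 5434 genes. Arrays were grouped by the labels. Each experiment was fitted with lmFit and eBayes (limma 3.58.1, R 4.3.3), with Benjamini-Hochberg adjustment over all genes and a threshold of 0.05. The fit was tested on simulated data. With 3 or 4 arrays per group, their number limits the precision.

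The main fits did not pair arrays. Only in the block fit were replicate numbers taken to pair the arrays of experiment 1. The deviations of same-numbered arrays from their group means correlated there at 0.546, 0.332 and 0.651. All 255 higher and 134 lower agreeing genes also passed in the block fit of experiment 1. With the block 499 genes agreed. The pairing comes from the values, since the labels do not say what a number marks. In experiment 2 not all such correlations were above 0.1.

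Genes were named by rule: the 15 highest and 15 lowest agreeing genes by the smaller log2 change, up to 4 members per list, 6 genes with opposite signs, and a fixed set (SCC2, SCC4, MCD1, SMC1, SMC3, IRR1, HO, GAL1). REC102 and ISA2 were named for lying nearest to the size rule. Some genes so chosen are left to the counts. Members and lists were chosen with earlier results of these data known. Alternatives covered scaling, filtering, array weights, blocks, the size rule and leaving out arrays. A search of promoters for motifs was planned and not run, since no promoter sequences were used here.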

Additional observations from a re-analysis of the deposited data

Results flagged for a closer look

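Of 160 groups of 4 arrays of the 80 named genes, 6 held an array set apart from its fellows relative to their range, where chance gives about 1 in 20. In scc2-4 of experiment 2 these were FRE2 at 8.50, YMR084W at 4.12 and QCR10 at 13.28. In wild type of experiment 2 they were YIG1 at 8.74, PRM9 at 5.95 and PET117 at 8.34. For YIG1 all 4 arrays lay between 8.72 and 8.74, so that the distance is minute.

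For other genes the genotype difference itself changed with the break, by limma's interaction test. The interaction, the change with a break minus that without, was -0.76 for HXT3, 0.47 for PTR2 and 0.86 for SLF1 in experiment 2. It was -0.37 and -0.38 for ARO1 in experiments 1 and 2. In experiment 2 it was -0.43 for IRR1, -0.29 for SMC1, -0.26 for RDH54, -0.30 for DUN1 and -0.39 for TIR3. For YLR156W it was 1.71 in experiment 1 and 1.20 in experiment 2, the genotype change going from -0.94 to 0.77 and from 0.56 to 1.76.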

How the results depend on the processing

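The agreeing counts (389 in all, 255 higher, 134 lower) depend on experiment 1 and on the size rule. Leaving out 1 array at a time gave 625 to 1680 calls in experiment 1 (340 to 893 higher, 283 to 787 lower), 4405 to 4522 in experiment 2 and 221 to 454 agreeing genes (146 to 271 higher, 72 to 183 lower). Agreement fell to 221, 226 and 232 genes without wild-type array 1, wild-type array 2 or scc2-4 array 2 of experiment 1, and each of the 6 omissions took the experiment 1 call from 1 to 19 of the 80 named genes. Averaging arrays 1 and 2 of experiment 1, chosen after seeing the data, left 8 calls (1 higher, 7 lower) and 5 agreeing genes (1 and 4); fewer samples entered.

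Array weights gave 2735 calls in experiment 1 (1442 higher, 1293 lower) and 222 agreeing lower genes. The replicate block gave 2254 (1200 and 1054) in experiment 1, and with quantile normalization 2215 (1084 lower), with 1988 lower in experiment 2 and 611 agreeing (280 lower). In experiment 2, where replicate numbers do not pair the arrays, correlations were -0.164, 0.302, 0.202 and -0.181; the block brought SMC3 past the threshold. Without other changes the block altered 1 further named call, HO in experiment 1, which then passed (adjusted p = 0.0382). With block and quantile normalization together MSN1 in experiment 2 was lost (0.167, adjusted p = 0.0863), though it passed with quantile normalization alone.

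Quantile normalization gave 2011 lower calls in experiment 2 and 241 agreeing lower genes. Centring gave 2063 higher and 2229 lower in experiment 2, and 256 agreeing lower genes. Without the dimmest 25% of genes 829 were lower in experiment 2 and 253 agreed (83 lower), from fewer genes tested. A size ratio of 0.67 left 207 agreeing genes (121 higher, 86 lower), no size rule 836 (632 and 204) and a threshold of 0.01 161 (105 and 56). A single fit over 14 arrays with experiment as an additive term called 3442 (2431 and 1011).

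Signs turned for GAL1 in experiment 2 (-0.0602 with quantile normalization with or without the block, -0.1631 with centring) and MCD1 in experiment 1 (0.0143 with array weights). Leaving out 1 array of experiment 1 gave -0.0059 to 0.0657 for SCC4 and -0.0998 to 0.0254 for MCD1. Where no construction explains a move, the cause was not tested.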
